A study of Homo sapiens with 12 samples.

Results

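A549 and H1299 are established cell lines from human lung cancers other than the small-cell type. The question here was which genes each line transcribed alone or far above the other when both carried an empty lentiviral vector. A549 came from a lung adenocarcinoma and is known to carry mutant STK11, KEAP1 and SMARCA4 and to lack CDKN2A. H1299 came from a lymph node metastasis of a large-cell carcinoma and is known to carry mutant NRAS. The comparison used 3 RNA-seq libraries of A549 with empty vector and 3 of H1299 with empty vector, 6 of the 12 libraries of the series. The other 6 were A549 and H1299 libraries with a VGF-expressing vector, 3 of each, and they served as a second measurement of the same lines. All 12 libraries thus came from cells that carried a lentiviral vector. The titles gave the vector, since the treatment note of every library speaks of the empty one. Per the labels' protocols A549 was grown in DMEM/F12 and H1299 in RPMI-1640, so the line and its medium cannot be told apart. Each line is 1 tumour, and neither stands for its tumour type. The tables held 26535 features, 19974 of them with an Ensembl ID (called genes below), and 14865 of those passed the filter on low counts and were tested.

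Cell lines of 1 organ can keep very different programs, because the transcription factors, DNA methylation and mutations that fix a program are copied at each division. In A549 the mutant KEAP1 fails to mark the transcription factor NRF2 for destruction, and NRF2 switches on genes of antioxidant defence and detoxification through the antioxidant response element. HNF4A drives genes of liver, gut and kidney epithelium, fibrinogen and albumin among them. Cancer-testis antigens are genes, many on chromosome X, that are silent in most adult tissues outside the germ line and are often transcribed in tumours.

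Promoter sequence is shown first for genes of the NRF2 program, one that the values below turn on. The windows come from RefSeq (assembly GRCh38.p14), run 5′ to 3′ on the gene's own strand and lie upstream of the RefSeq start. Where a GENCODE 29 transcript starts within the 250 bases before that start, the bases from there on are left out. Capitals mark the letters searched for, on both strands. PGD, of the pentose phosphate pathway, and ME1, malic enzyme, both make NADPH, and their windows at chr1:10398814-10399043, plus strand, and chr6:83431072-83431301, minus strand, were searched for TGACNNNGC, the core of the antioxidant response element.
PGD: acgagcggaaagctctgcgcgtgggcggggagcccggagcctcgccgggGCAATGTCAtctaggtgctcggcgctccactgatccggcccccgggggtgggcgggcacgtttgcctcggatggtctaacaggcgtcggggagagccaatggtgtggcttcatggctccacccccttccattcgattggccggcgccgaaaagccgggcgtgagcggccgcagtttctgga
ME1: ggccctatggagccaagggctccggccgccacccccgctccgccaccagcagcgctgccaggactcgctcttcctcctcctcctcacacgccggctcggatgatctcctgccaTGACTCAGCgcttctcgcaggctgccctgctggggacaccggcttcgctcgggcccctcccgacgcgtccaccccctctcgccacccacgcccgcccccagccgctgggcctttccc
The match began 201 bases before the RefSeq start of PGD, on the opposite strand, and 137 before that of ME1. The first letters of the ME1 match, TGACTCA, are also the AP-1 motif. Over 35116 RefSeq windows of 250 bases upstream, 10.9% held the antioxidant response letters. A match describes the letters of a window and is not a measured binding site. Both were chosen with their expression known, and windows were found for under 80% of the far higher genes of either line, so no share was compared between the classes.

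Library totals were 35401080 to 36874932 counts in the A549 libraries with empty vector and 37807540 to 41575732 in those of H1299. Mitochondrial genes took 7.03 to 7.63% of the counts in A549 and 3.32 to 3.47% in H1299. Transcripts typical of each line were found at trace level in some libraries of the other. Over 188 genes with at least 10 FPKM (fragments per kilobase of transcript, scaled to the depth of the library) in A549 and at least a 100-fold difference, H1299 library 2 held a median of 0.293% of the A549 level, against 0.0328% and 0.0511% in H1299 libraries 1 and 3. It was the highest of the 3 for 128 of these 188 genes. Over 80 such genes of H1299, the A549 libraries with empty vector held 0.0282%, 0% and 0%, and A549 VGF library 2 held 0.261%. Without H1299 library 2 the fold became over 1.5 times larger for 68 of the 201 genes named here as far higher in A549. Without A549 library 1 it did so for 28 of the 145 named for H1299. Folds against a level near 0 therefore rest on single libraries. Levels per library are given below in their place, and the fold of a far higher gene is printed only where leaving out any 1 library moved it by under 1.5 times, unless stated.

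Of the 14865 genes tested, 5856 were higher in H1299 (39.4%) and 6029 higher in A549 (40.6%) at an adjusted p under 0.05, so a difference alone says little. Narrower classes were therefore used. A gene is called far higher in a line at a difference of at least 10-fold and a mean of at least 1 FPKM there. That held for 587 genes in H1299 (3.95%) and 901 in A549 (6.06%). A gene is called expressed in a line alone when each of its 3 libraries reached 1 FPKM and each of the other 3 stayed under 0.1 FPKM. There were 333 such genes in H1299 (2.24%) and 326 in A549 (2.19%), all of them also far higher. Without H1299 library 2 the A549 class held 408 genes. In all 6 libraries 10014 genes reached 1 FPKM. Counts of list members below are to be read against the shares of all tested genes given here.

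The balance of the classes differed by level. Counts on genes far higher in A549 made up 12.7 to 13.02% of each A549 library and 0.342 to 0.373% of each H1299 library. For genes far higher in H1299 the shares were 2.36 to 2.41% in H1299 and 0.0580 to 0.0594% in A549. Genes of A549 alone had a median of 4.48 FPKM, with 76 at 10 FPKM or more, and those of H1299 alone 3.59 FPKM, with 61. No count at all was seen in the other line for 111 genes of A549 alone and 151 of H1299 alone.

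**Figure D1:**
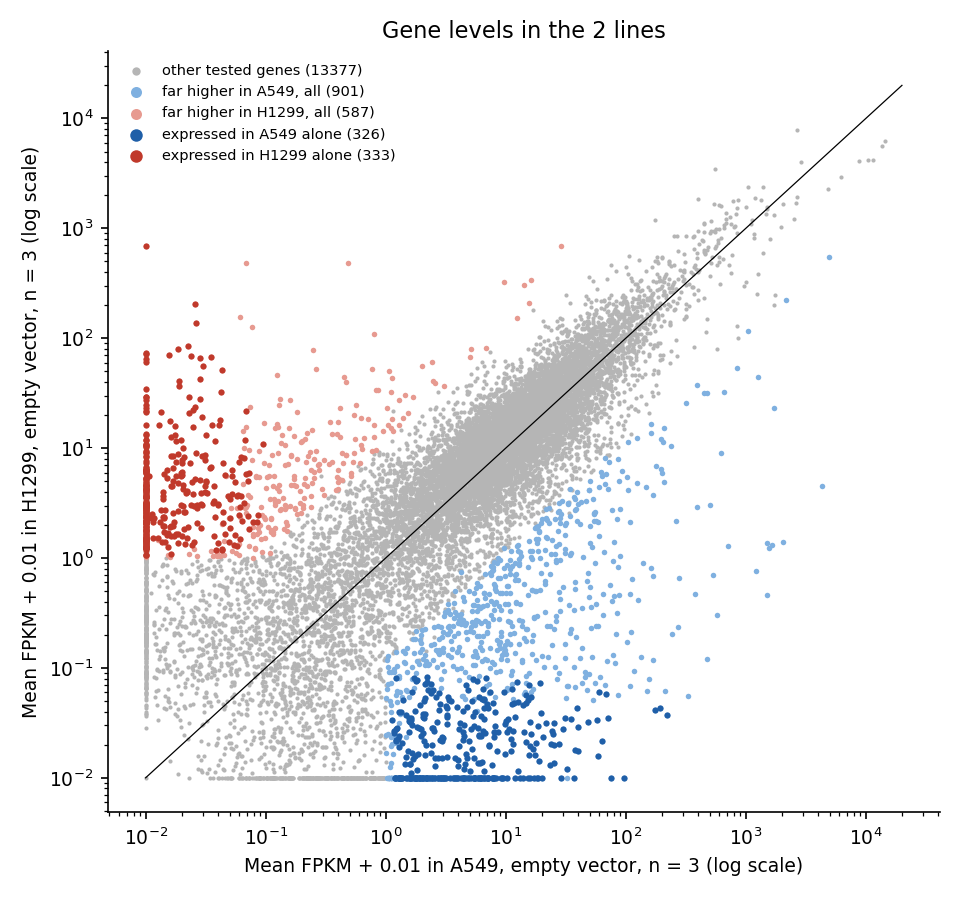
Mean FPKM of each of the 14865 tested genes in A549 (horizontal) and H1299 (vertical) with empty vector, 3 libraries each, on log axes after adding 0.01. Coloured points are the 901 and 587 genes far higher in A549 and H1299, darker where expressed in that line alone (326 and 333), and the line marks equal levels.

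**Figure D2:**
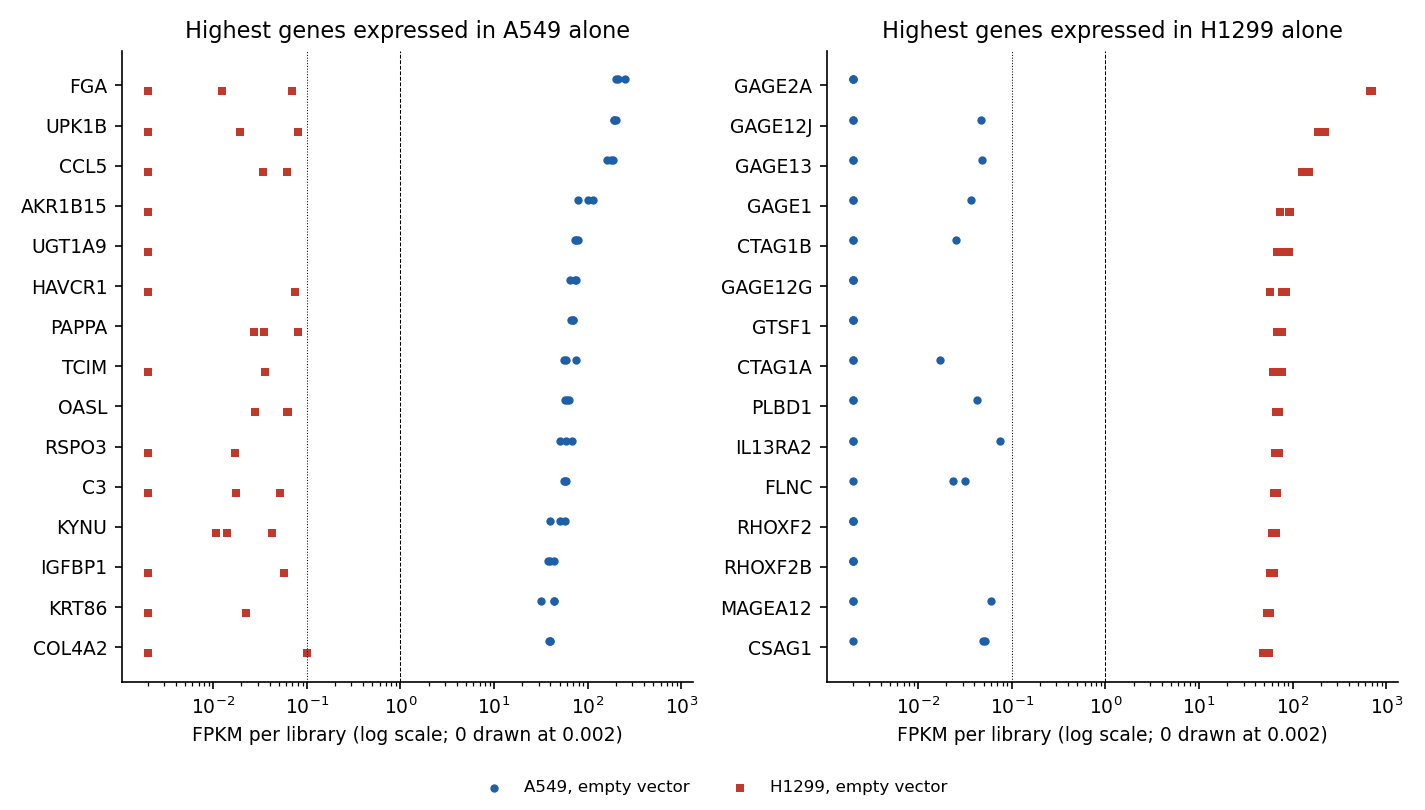
FPKM per library of the 15 highest genes expressed in A549 alone (left panel) and H1299 alone (right panel), circles for A549 and squares for H1299 with empty vector, on a log axis with 0 drawn at 0.002. Dashed and dotted lines mark 1 and 0.1 FPKM, and every gene has its 3 libraries above the first in one line and below the second in the other.

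The liver-type secreted proteins were, among tested members, the list with the largest share of far higher genes in A549. Of 47 members with an Ensembl ID, 31 passed the filter on low counts, while all 40 of the NRF2 target list below did. Over members with an Ensembl ID, 21 of 47 were far higher here and 23 of 40 there, so which list leads rests on the filter. Of 31 tested members, 26 were higher in A549 and 3 in H1299, and 21 were far higher in A549, 10 of them alone. The median log2 difference (H1299 minus A549) was -7.15, against -0.01 over all genes. The 3 chains of fibrinogen, the precursor of the fibrin clot, lie side by side on chromosome 4. FGB (ENSG00000171564, chromosome 4, 154562956 to 154571086, plus strand) stood at 295, 311 and 385 FPKM in A549 libraries 1, 2 and 3 and at 0, 0.137 and 0 in those of H1299 (adjusted p = 8.34e-13, edgeR). FGA (ENSG00000171560, chromosome 4, 154583126 to 154590766, minus strand) stood at 201, 212 and 249 FPKM in A549 and 0.0123, 0.0700 and 0 in H1299 (adjusted p = 6.55e-12). FGG stood at 193, 198 and 246 FPKM in A549 and 0.0515, 0.103 and 0 in H1299. All 3 A549 libraries were thus above 190 FPKM for each chain, and no H1299 library passed 0.14.

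Complement and transport proteins of the same list were high in the same line. C3, the central complement component, stood at 58.01, 56.2 and 57.8 FPKM in A549 and 0, 0.0522 and 0.0176 in H1299. The activator CFB stood at 31.9, 29.7 and 33.5 FPKM in A549 against 0.1296, 0 and 0 in H1299. C5, whose cleavage starts the lytic complex, was high in A549 and still measurable in H1299, at 104, 101 and 119.97 against 1.77, 2.06 and 2.55 FPKM (58.6-fold, adjusted p = 2.50e-13). Albumin itself was low, with 2.15, 2.903 and 4.43 FPKM in A549 and 0.0188, 0 and 0.0864 in H1299. Coagulation factors F2 and F7 and the matrix protein VTN were also expressed in A549 alone, at means of 1.69, 1.76 and 16.1 FPKM. The 3 members higher in H1299 were the lipid carrier APOE, the protease inhibitor SERPINA1 and A1BG. APOE stood at 36.6, 40.3 and 43.9 FPKM in H1299 against 0.293, 0.615 and 0.473 in A549, a 77.02-fold difference (adjusted p = 2.67e-11). SERPINA1 and A1BG differed by 2.29-fold and 2.62-fold.

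The transcription factors known to drive such genes in liver and gut were on the same side. HNF4A (ENSG00000101076, chromosome 20, 44355700 to 44434596, plus strand), a nuclear receptor, stood at 10.9, 13.8 and 9.89 FPKM in A549 against 0.0140, 0.0353 and 0 in H1299. It was expressed in A549 alone. FOXA2, a pioneer factor of endoderm, was 59.4-fold higher in A549 (13.7 ± 1.02 against 0.259 ± 0.0421 FPKM, SD, n = 3, adjusted p = 4.78e-13), and FOXA1 and CEBPA were 7.68-fold and 8.65-fold higher. ELF3 and SPDEF, epithelial ETS factors, stood at means of 52.4 and 8.18 FPKM in A549 and 0.116 and 0.0442 in H1299. In the other direction SOX9, a progenitor factor of lung and other epithelia, was 1.86-fold higher in H1299, GATA6 2.39-fold, and FOXP2 was expressed in H1299 alone at 1.68, 1.47 and 2.29 FPKM. Of 27 tested airway and alveolar identity factors, 15 were higher in A549 and 5 in H1299.

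The lung factor NKX2-1 and the surfactant genes were at or near 0 in both lines. NKX2-1, the master factor of lung epithelium, stood at 0.0265, 0.115 and 0.0569 FPKM in A549 and 0.0194, 0.0690 and 0.103 in H1299, below 0.12 in every library (adjusted p = 0.735). None of the surfactant genes SFTPA1, SFTPA2, SFTPB, SFTPC and SFTPD, nor the club cell marker SCGB1A1, passed the filter. Of the 8 tested genes of the alveolar and lung secretory list 2 were higher in H1299 and 4 in A549. LAMP3, a lysosomal protein used as a marker of alveolar type II cells, stood at 2.62, 4.07 and 5.404 FPKM in H1299 and 0.0927, 0.0639 and 0.203 in A549, 28.1-fold higher in H1299 (adjusted p = 1.48e-07). BPIFB1, a secreted airway protein, was the member far higher in A549, at 1.46, 0.9398 and 0.783 FPKM against 0, 0 and 0 in H1299. EPCAM, a pan-epithelial antigen, was under 0.5 FPKM in all 6 libraries (0.251, 0.369 and 0.294 in A549 and 0.459, 0.0709 and 0.143 in H1299, adjusted p = 0.439). The simple keratins KRT8 and KRT18 were abundant in both lines, as described below. Of the endothelial markers 11 of 14 were tested, of the blood markers 5 of 16 and of the fibroblast markers 6 of 9. Far higher among them in A549 were ESAM, CD14 and COL1A1, at means of 14.8, 8.87 and 4.74 FPKM, and none was far higher in H1299. PTPRC, CD3E, HBB, COL1A2 and TEK did not pass the filter. In bulk RNA, fewer cells that express a gene and less of its RNA per cell cannot be told apart.

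NRF2 target genes were higher in A549 almost throughout. Of 40 tested, 38 were higher in A549 and 1, the glutathione transferase GSTM3, in H1299, with 23 far higher in A549 and none in H1299 (median log2 difference -3.46). The aldo-keto reductases, which reduce aldehydes and ketones, were among the most abundant. AKR1B10 (ENSG00000198074, chromosome 7, 134527592 to 134541408, plus strand) stood at 4405, 4238 and 4295 FPKM in A549 and 0.614, 12.2 and 0.8001 in H1299. It was 1073-fold higher in A549 with all libraries and 6932-fold without H1299 library 2, whose value was the high one (adjusted p = 9.60e-08). AKR1C2 stood at 1568, 1544 and 1551 FPKM in A549 and 0.708, 2.04 and 0.957 in H1299, AKR1C3 at 1244, 1226 and 1166 in A549 against 0.205, 1.93 and 0.132 in H1299, and AKR1C1 at 399.9, 365 and 369.8 in A549 against 0.195, 0.973 and 0.206 in H1299. The neighbour AKR1B1 was expressed in both lines and 88.1-fold higher in A549 (1706 ± 159 against 23.1 ± 1.52 FPKM, SD, n = 3). Members of each aldo-keto family are near copies of each other, so the division of their reads is uncertain.

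The classical NRF2 targets of glutathione, thioredoxin and NADPH supply differed less but with narrow errors. NQO1 (ENSG00000181019, chromosome 16, 69706996 to 69726951, minus strand), a quinone reductase, stood at 831, 832 and 868 FPKM in A549 and 51.7, 53.2 and 55.3 in H1299, 18.6-fold higher (log2 difference -4.21, SE 0.0441, adjusted p = 2.04e-15). PGD, of the pentose phosphate pathway, stood at 1044, 1046 and 1021 FPKM in A549 against 119, 119.8 and 109 in H1299 (10.2-fold). ME1 differed 11.7-fold. Among the enzymes of glutathione synthesis GCLM lay just under the 10-fold limit at 9.86-fold and GCLC at 6.48-fold, while PGD lay just above it. TXNRD1, thioredoxin reductase, was 8.103-fold higher, and the cystine carrier SLC7A11 3.87-fold. Ferritin light and heavy chains FTL and FTH1, which store iron, were 10.3-fold and 10.5-fold higher in A549. All of these kept transcript in H1299 at 1 FPKM or more, unlike the next. GPX2, a glutathione peroxidase of epithelium, stood at 269, 266 and 297 FPKM in A549 and 0.374, 1.37 and 0.195 in H1299.

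The regulators themselves differed by far less. NFE2L2, which codes for NRF2, stood at 47.9, 49.4 and 53.2 FPKM in A549 and 39.6, 42.1 and 42.5 in H1299, a 1.39-fold difference (adjusted p = 5.77e-06). KEAP1 stood at 36.6, 36.2 and 33.4 FPKM in A549 and 39.1, 38.8 and 34.9 in H1299 (log2 difference -0.15 in the TMM-scaled counts, adjusted p = 0.0575) and was not called. DESeq2 and limma voom called it higher in A549, at log2 differences of -0.148 and -0.145, while scaling to library totals gave 0.061 with no call. RNA levels hold no reading of the KEAP1 protein or its mutation. HMOX1, a further NRF2 target that also answers to heme, was 4.34-fold higher in A549.

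Other detoxifying enzymes and the pumps that export their products followed. Of 37 tested genes of xenobiotic and steroid metabolism 25 were higher in A549 and 7 in H1299, with 14 and 3 far higher. The UGT1A locus at chromosome 2, 233671853 to 233773300, which makes glucuronidating enzymes from alternative first exons, gave the longest run of neighbouring far higher genes in A549, with 6 members. UGT1A9 stood at 74.7, 74.02 and 78.7 FPKM in A549 and had no count in H1299, which makes it at least 7810-fold higher against a floor of 3 counts over the group. UGT1A6 stood at 23.5, 20.5 and 26.9 FPKM in A549 and 0, 0.0310 and 0 in H1299, and UGT1A1 at 11.7, 10.7 and 15.9 in A549 against 0.0134, 0.0703 and 0.0343 in H1299. The UGT1A genes share their last exons, so how reads were split between them is uncertain, and UGT1A3 ranged over 1.34, 2.73 and 0.473 FPKM. The conjugate pumps ABCC2 and ABCC3 were 278-fold and 181-fold higher in A549, at 169 ± 3.53 and 139 ± 8.85 FPKM (SD, n = 3). CYP24A1, which inactivates vitamin D, stood at 148, 162 and 181 FPKM in A549 and 0.624, 1.06 and 0.718 in H1299.

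Exceptions on the H1299 side were few. ABCB1, the multidrug efflux pump, stood at 3.32, 3.18 and 3.06 FPKM in H1299 with no count in A549 (at least 586-fold higher in H1299). UGT8, which builds galactosylceramide, was expressed in H1299 alone at 5.58, 6.17 and 5.77 FPKM. The monooxygenase CYP2J2 was far higher in H1299 at a low level, 1.06, 1.26 and 0.833 FPKM against 0.124, 0.0260 and 0.

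Aldehyde dehydrogenases ranged widely. ALDH1A1 (ENSG00000165092, chromosome 9, 72900662 to 73080442, minus strand), which makes retinoic acid, stood at 1951, 1978 and 2151 FPKM in A549 and 0.416, 3.47 and 0.253 in H1299. ALDH3A1, an aldehyde-clearing enzyme of cornea and airway, stood at 1662, 1562 and 1294 FPKM in A549 and 0.287, 3.59 and 0.183 in H1299. H1299 library 2 again held the highest H1299 value of both. Without it the folds were 6780 and 5813, against 1649.6 and 1140.5 with all libraries. The paralog ALDH1A2 stood the other way round at low level, 1.18, 1.47 and 0.882 FPKM in H1299 against 0, 0 and 0.101 in A549 (adjusted p = 0.00504).

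Epithelial junction genes separated the lines. CDH1 (ENSG00000039068, chromosome 16, 68737225 to 68835548, plus strand), E-cadherin, stood at 14.98, 14.3 and 16.4 FPKM in A549 and had no count in any H1299 library, at least 3171-fold higher in A549. CLDN2, a claudin that forms cation pores, stood at 128, 158 and 185 FPKM in A549 and 0.0488, 0.157 and 0 in H1299. JUP, plakoglobin, was 51.7-fold higher in A549 (168 ± 5.64 against 3.73 ± 0.283 FPKM), and the cornified envelope protein EVPL and the polarity protein CRB3 were expressed in A549 alone. Of 37 tested genes of this list 23 were higher in A549 and 7 in H1299, and 11 and 0 far higher.

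Keratins, the intermediate filaments of epithelium, differed by type. KRT8 and KRT18, the pair of simple epithelium, were among the abundant transcripts of both lines, at 1745 ± 76.98 and 1265 ± 69.1 FPKM in A549 and 249 ± 12.5 and 382 ± 6.63 in H1299 (SD, n = 3). They differed 7.85-fold and 3.82-fold. KRT7, a keratin of glandular epithelium, stood at 509, 546 and 535 FPKM in A549 and 0.513, 1.16 and 0.401 in H1299. It opens a run of 5 far higher neighbours on chromosome 12 that goes on with hair keratins. KRT81 stood at 1383, 1568 and 1550.3 FPKM in A549 and 0.172, 1.099 and 0.0895 in H1299. The hair keratins KRT81, KRT83, KRT85 and KRT86 are close copies, and KRT85 was at 40.7, 56.5 and 0 FPKM in the 3 A549 libraries, so its value depends on how reads were assigned. KRT19 was low, at 3.35, 1.72 and 2.07 FPKM in A549 and 0.182, 0.8595 and 0.0884 in H1299.

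Mucous cell genes were mostly an A549 trait. MUC5AC (ENSG00000215182, chromosome 11, 1157953 to 1201138, plus strand), the gel-forming airway mucin, stood at 84.995, 88.2 and 86.5 FPKM in A549 and 0.0198, 0.109 and 0.0103 in H1299. AGR2, a chaperone needed for mucin folding, stood at 528, 534 and 650.0 FPKM in A549 and 0.0707, 0.804 and 0 in H1299. Its fold was 2135 with all libraries and 14410 without H1299 library 2. Of 17 tested members 12 were higher in A549 and 4 in H1299. Far higher in H1299 were the membrane mucin MUC15, at 8.94, 8.28 and 9.78 FPKM with no count in A549, and the transcription factor CREB3L1, at 4.38, 4.83 and 4.56 FPKM against 0.114, 0.2397 and 0.138.

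Cytokine and chemokine genes were higher in A549 for 39 of 50 tested members and in H1299 for 9, with 20 and 5 far higher (median log2 difference -3.43). CCL5 (ENSG00000271503, chromosome 17, 35871491 to 35880793, minus strand), which attracts T cells, stood at 159, 177 and 185 FPKM in A549 and 0, 0.0609 and 0.0343 in H1299. Neutrophil attractants of 1 gene cluster were split between the lines. CXCL5 stood at 428, 441 and 561 FPKM in A549 and 0.0172, 0.281 and 0.0346 in H1299, and CXCL8, interleukin 8, at 48.4, 46.02 and 54.5 in A549 against 0, 0.234 and 0 in H1299. Both lie in a run of 5 far higher A549 neighbours on chromosome 4 with ALB, RASSF6 and CXCL1. Another member of that chemokine family, CXCL2, was on the other side: it stood at 94.5, 102 and 113 FPKM in H1299 and 20.2, 18.3 and 17.8 in A549, 4.77-fold higher in H1299 (adjusted p = 3.02e-09). Among other mediators the monocyte attractant CCL2 stood at 155, 128 and 96.2 FPKM in A549 and 0.151, 0.649 and 0.412 in H1299. IL6 was expressed in A549 alone, at 5.29, 4.44 and 5.74 FPKM with no count in H1299, and the interleukin 1 family member IL18 at 22.6, 25.3 and 28.6 FPKM. PTGS2, the inducible cyclooxygenase, was 175-fold higher in A549.

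H1299 had its own members of these families. ICAM1, the leukocyte adhesion ligand, stood at 20.98, 22.3 and 20.8 FPKM in H1299 and 0.322, 0.0420 and 0.155 in A549. IL7, a lymphocyte growth factor, was at 3.61, 4.27 and 3.35 FPKM in H1299 and CCL28, a mucosal chemokine, at 3.46, 3.38 and 2.69. IL13RA2, a decoy receptor for interleukin 13, stood at 64.3, 64.8 and 72.3 FPKM in H1299 and 0.0748, 0 and 0 in A549. NLRP1, an inflammasome sensor, stood at 11.2, 10.7 and 11.005 FPKM in H1299 and 0.0844, 0.0793 and 0.0937 in A549. TMEM173 (STING) and CGAS, partners in sensing DNA in the cytosol, were 5.64-fold and 2.33-fold higher in H1299.

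Interferon response genes were higher in A549 for 42 of 50 tested members and in H1299 for 5, with 16 and 1 far higher. OASL, an antiviral sensor partner, stood at 57.8, 59.8 and 63.4 FPKM in A549 and 0.0279, 0.0626 and 0.0607 in H1299, and OAS1 at 78.2, 75.9 and 94.9 in A549 against 0, 0.499 and 0.0754 in H1299. IFIT1 was measurable in both lines, 54.3 ± 6.11 against 2.16 ± 0.299 FPKM (SD, n = 3), 23.3-fold higher in A549 (adjusted p = 1.26e-13). Each of these was higher in A549. RSAD2, an antiviral enzyme, was at 2.49, 2.92 and 4.03 FPKM in A549 with no count in H1299. The classical marker MX1 stayed under 0.35 FPKM in every library. IFITM3 went the other way, 2.48-fold higher in H1299. Interferon genes themselves were transcribed at low level in A549: IFNL1 at 8.12, 8.47 and 7.34 FPKM, IFNL2 at 8.79, 7.26 and 7.28, IFNL3 at 6.34, 8.67 and 8.98 and IFNB1 at 1.76, 1.87 and 1.76. In H1299 these 4 had at most 0.0577 FPKM. IFNL2 and IFNL3 are near copies, so their split is uncertain. The lentiviral vector was common to all libraries, and its part in these levels was not tested.

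Matrix genes differed by chain. Of 34 tested collagen chains 23 were higher in A549 and 7 in H1299, with 10 and 1 far higher. All 6 chains of collagen IV, the network of basement membranes, were far higher in A549. COL4A2 stood at 39.1, 38.6 and 39.4 FPKM in A549 and 0, 0.0998 and 0 in H1299, and its head-to-head neighbour COL4A1 at 14.3, 14.4 and 15.3 in A549 against 0.0499, 0.0561 and 0.00710 in H1299. COL4A5 and COL4A6, the pair on chromosome X, stood at 31.4 ± 1.94 and 31.4 ± 0.895 FPKM in A549 and 1.11 ± 0.0903 and 0.113 ± 0.0339 in H1299. COL4A3 and COL4A4 were expressed in A549 alone at means of 1.81 and 1.78 FPKM. FN1, fibronectin, stood at 650.4, 611 and 601 FPKM in A549 and 7.44, 11.5 and 7.92 in H1299 (77.8-fold). COL5A2 was 269-fold higher in A549 (log2 difference -8.07, SE 0.0941, adjusted p = 4.67e-15). In H1299 the transmembrane collagen COL13A1 was far higher, at 5.09, 5.35 and 6.27 FPKM against 0.0924, 0.0910 and 0.139, COL6A2 was 2.702-fold higher, and laminin LAMA2 and the microfibril protein MFAP2 were expressed alone at means of 5.89 and 19.01 FPKM.

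Growth factors and WNT components also divided. AREG, a ligand of the EGF receptor, stood at 52.97, 56.02 and 60.8 FPKM in A549 against 0.0649, 0.387 and 0.233 in H1299, and the ligand EREG at 53.9, 54.1 and 53.4 against 0, 0.123 and 0. Of 58 tested receptor tyrosine kinases and ligands 36 were higher in A549 and 16 in H1299, and 10 and 2 far higher. The receptors EGFR and ERBB2 differed only 3.196-fold and 5.98-fold, both higher in A549. NRG1, a ligand of the related receptors ERBB3 and ERBB4, stood at 34.1 ± 2.47 FPKM in A549 and 4.26 ± 1.22 in H1299 (SD, n = 3). In the WNT pathway 26 of 41 tested genes were higher in A549 and 11 in H1299. RSPO3, which amplifies WNT signals through the LGR receptors, stood at 51.2, 68.1 and 58.2 FPKM in A549 and 0, 0.0169 and 0 in H1299, and its receptor LGR4 was 65.5-fold higher in A549. DKK1, a WNT inhibitor, was 139-fold higher in A549 (263 ± 29.2 against 2.17 ± 0.195 FPKM, SD, n = 3). WNT ligands differed by member: WNT7B was expressed in A549 alone at 9.61, 10.4 and 11.5 FPKM, and WNT5B was 68.2-fold higher in H1299. WNT16 was expressed in H1299 alone at 2.33, 2.16 and 1.59 FPKM with no count in A549. LEF1, a transcription factor of the pathway, stood at 3.52, 4.05 and 3.54 FPKM in H1299, also with no count in A549. FGF5 and FGF1 were expressed in H1299 alone at means of 7.34 and 1.73 FPKM.

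In 2 pairs of receptor paralogs, chosen after their values were seen, the members were higher in opposite lines. Of the sphingosine 1-phosphate receptors, S1PR3 stood at 39.8, 37.7 and 35.5 FPKM in A549 and 0, 0.0181 and 0.00580 in H1299, while S1PR1 stood at 6.72, 5.697 and 5.59 FPKM in H1299 and 0.0176, 0 and 0.0129 in A549. Of the lysophosphatidic acid receptors, LPAR1 was 22.9-fold higher in A549 (39.02 ± 1.33 against 2.16 ± 0.192 FPKM), while LPAR3 stood at 5.96, 5.07 and 4.87 FPKM in H1299 and 0.0153, 0 and 0 in A549. NTSR1, the neurotensin receptor, stood at 16.01, 16.5 and 16.6 FPKM in H1299 and 0, 0.0204 and 0.0712 in A549. Among abundant A549 transcripts of other kinds, that of the calcium-binding protein S100A6 stood at 755, 698 and 659.5 FPKM in A549 against 0.193, 3.19 and 0.431 in H1299. S100A4 stood at 409, 379 and 389.6 FPKM in A549 against 1.31, 5.59 and 1.76 in H1299. UPK1B, a uroplakin of urothelial membranes, stood at 190.4, 191 and 201 FPKM in A549 and 0.0193, 0.0800 and 0 in H1299.

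Among tested members, cancer-testis antigens gave the largest share of far higher genes in H1299 of any list. Of 51 members with an Ensembl ID, 25 passed the filter on low counts, while all 58 of the KRAB zinc finger list below did. Over members with an Ensembl ID, 20 of 51 were far higher here and 30 of 58 there, so which list leads rests on the filter. Of 25 tested members 24 were higher in H1299 and 0 in A549. A member silent in A549 could be tested only through H1299, so this split leaves out members low in both lines. Far higher were 20, 16 of them in H1299 alone, with a median log2 difference of 10.36. The list was chosen with results for MAGEA genes of these libraries known. GAGE2A (ENSG00000189064, chromosome X, 49589529 to 49596827, plus strand) stood at 698, 678 and 687 FPKM in H1299 with no count in A549, at least 13940-fold higher. GAGE12J stood at 219.6, 188 and 208 FPKM and GAGE13 at 127, 150.4 and 139 in H1299, and both were under 0.05 FPKM in each A549 library. The GAGE genes formed the longest run of far higher neighbours, 11 genes at chromosome X, 49322057 to 49608536. They are near-identical copies, so the cluster as a whole is better measured than any member. GAGE12E, for instance, stood at 15.2, 0 and 59.4 FPKM in the 3 H1299 libraries, and limma voom did not call it.

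MAGEA4 (ENSG00000147381, chromosome X, 151912509 to 151925170, plus strand) was the most abundant MAGE gene, at 482, 506 and 460.4 FPKM in H1299 and 0.116, 0.0591 and 0 in A549. MAGEA12 stood at 55.3, 57.7 and 53.4 FPKM and MAGEA10 at 32.4, 32.99 and 32.7 in H1299, and each was under 0.07 FPKM in every A549 library. MAGEA3 and MAGEA6 were expressed in both lines. MAGEA3 stood at 79.3, 83.6 and 79.7 FPKM in H1299 and 6.24, 6.83 and 7.597 in A549 (10.6-fold), and MAGEA6 at 80.7, 78.6 and 77.4 in H1299 against 15.8, 19.1 and 15.8 in A549 (4.01-fold). The NY-ESO-1 genes CTAG1A and CTAG1B, identical copies in their coding part, were at most at 0.0257 FPKM in A549. In H1299 CTAG1A stood at 61.1, 71.01 and 77.5 FPKM and CTAG1B at 67.7, 82.5 and 91.2. Members present in both lines were XAGE1A and XAGE1B, 4.56-fold and 4.64-fold higher in H1299, and PRAME, 1.77-fold higher (144 ± 6.39 against 70.6 ± 1.95 FPKM). SPANXB1 was the member not called (adjusted p = 0.0558), at 0, 0 and 0.903 FPKM in A549 with no count in H1299.

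Further genes of the germ line were found in H1299. RHOXF2 (ENSG00000131721, chromosome X, 120158561 to 120165630, plus strand), a homeobox gene of the testis, stood at 64.4, 66.8 and 60.96 FPKM in H1299 with no count in A549 (at least 7144-fold higher), and its copy RHOXF2B at 62.1, 63.1 and 57.6. The RNA export factor NXF2 stood at 23.9, 39.3 and 40.1 FPKM in H1299 and its near copy NXF2B at 36.95, 22.5 and 14.5, and the split between them varied from library to library. GTSF1, a factor of transposon silencing by small RNAs, stood at 68.3, 76.5 and 71.6 FPKM with no count in A549 (at least 2230-fold higher). TDRD12, of the same pathway, stood at 156, 153 and 158 FPKM in H1299 and 0.1199, 0.0330 and 0 in A549. CTCFL, the testis paralog of CTCF, was lower, at 2.05, 2.16 and 1.997 FPKM in H1299, and DPPA2, a pluripotency factor, stood at 4.63, 3.12 and 5.57. All of these but TDRD12 met the limits for expression in H1299 alone. The brain-expressed X-linked genes BEX1, BEX2 and BEX4 stood at means of 27.7, 52.98 and 29.05 FPKM in H1299 and at 0, 0.252 and 0.0132 in A549. Chromosome X held 43 of the 333 genes of H1299 alone and 14 of the 326 of A549 alone. It held 531 of all 14865 genes tested.

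KRAB zinc finger genes were the other large H1299 group. These are repressors that bind DNA through arrays of zinc fingers, recruit the corepressor TRIM28 and silence transposons among other targets, and most of them sit in clusters on chromosome 19. Of 58 tested members of the list, which holds only genes of chromosome 19, 55 were higher in H1299, 30 far higher and 21 in H1299 alone, with a median log2 difference of 4.05. The 3 members higher in A549 were ZNF71, ZNF552 and ZNF587, by only 1.61-fold, 1.63-fold and 1.17-fold. Both ZNF552 and ZNF587 lost their call with scaling to library totals, upper-quartile scaling and on the FPKM scales, and ZNF552 also with the replicate block, with no filter on low counts and without A549 library 2 or 3 or any 1 of the H1299 libraries. ZNF587 also lost its call without H1299 library 3. ZFP82 (ENSG00000181007, chromosome 19, 36383120 to 36418656, minus strand) stood at 10.998, 10.8 and 11.2 FPKM in H1299 with no count in A549, at least 1021-fold higher. ZNF677 stood at 9.69, 12.04 and 10.2 FPKM and ZNF85 at 5.81, 4.74 and 5.63 in H1299, also with no count in A549. Other members left traces in A549. ZNF568 stood at 8.47, 7.903 and 9.14 FPKM in H1299 and 0, 0 and 0.0210 in A549, and ZNF83 at 8.77, 7.86 and 8.95 in H1299 against 0.0186, 0 and 0 in A549. ZNF585A and ZNF569 were expressed in both lines, 17.1-fold and 16.1-fold higher in H1299.

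The pattern went beyond that list, for genes of H1299 alone mostly on chromosome 19. A set of 522 tested genes with a zinc finger symbol (ZNF, ZFP, ZSCAN or ZKSCAN with a number, or ZIK1) was formed after the values were seen. Members of the list above are in this set and were not taken out. Of the 522, 348 were higher in H1299 and 96 in A549, and 102 and 6 were far higher. H1299 alone expressed 74 of them, 67 on chromosome 19, which held 248 of the 522, and A549 alone none. They made up 22.2% of the genes of H1299 alone and 3.51% of all genes tested. Their median level was 3.17 to 3.31 FPKM in the H1299 libraries and 1.29 to 1.45 in the A549 libraries. Runs of 8 far higher neighbours lay on chromosome 19, one at 19785839 to 20661596, from ZNF506 to ZNF626, and one at 36714383 to 37218153, from ZNF850 to ZNF585B.

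HOX genes, which carry position along the body axis, were more often higher in H1299. Of 32 tested, 20 were higher in H1299 and 7 in A549. Far higher were 7 in H1299 (21.9%) and 0 in A549, against 3.95% and 6.06% of all genes. HOXB2 (ENSG00000173917, chromosome 17, 48540894 to 48544989, minus strand) was the most abundant, at 49.995, 49.2 and 52.3 FPKM in H1299 and 1.07, 0.913 and 1.17 in A549 (41.4-fold, adjusted p = 5.56e-10). No H1299 library came near the A549 libraries. HOXB4 stood at 15.7, 14.96 and 15.4 FPKM in H1299 and 0.0929, 0.138 and 0.205 in A549, and HOXC10 at 11.7, 11.99 and 12.8 in H1299 against 0.161, 0.239 and 0.2104 in A549. HOXA7 was expressed in H1299 alone, at 11.9, 12.4 and 11.01 FPKM with no count in A549, as were HOXA9 and HOXD9, at means of 11.7 and 2.61 FPKM. The members higher in A549 differed less, HOXA13 by 5.89-fold and HOXC13 by 3.84-fold. HOXB7 was expressed in both lines and 2.82-fold higher in H1299.

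**Figure D3:**
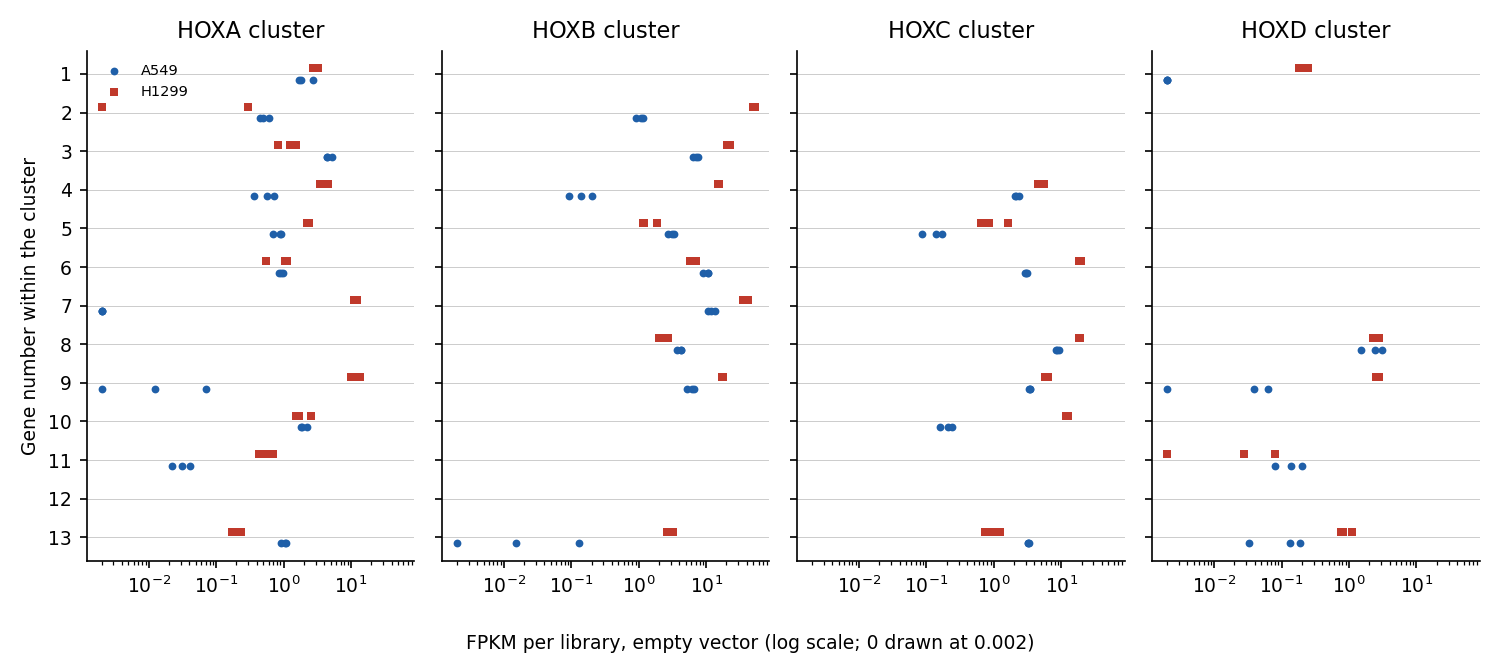
FPKM per library of the 32 tested HOX genes with empty vector on a log axis with 0 drawn at 0.002, one panel per cluster and genes ordered by their number. Circles are the 3 A549 and squares the 3 H1299 libraries; HOXA7, HOXA9 and HOXD9 are at or near 0 in A549 only, and HOXA13 and HOXC13 are higher in A549.

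Other developmental factors differed in both directions. Of 66 tested, 23 were higher in H1299 and 29 in A549, and 11 and 11 were far higher (median log2 difference -0.16, or 0.05 with scaling to library totals). TFAP2C, an ectodermal factor, stood at 6.12, 6.701 and 6.39 FPKM in A549 with no count in H1299. LIN28B, which blocks let-7 maturation, stood at 29.4, 31.8 and 29.9 FPKM in H1299 and 1.31, 1.38 and 1.67 in A549 (15.6-fold). HMGA2, a chromatin protein and known let-7 target, stood at 315, 317 and 335 FPKM in H1299 and 9.297, 10.9 and 8.65 in A549 (29.2-fold, adjusted p = 8.07e-14). FOXD1, PAX6 and SALL3 were also far higher in H1299, at means of 16.3, 4.22 and 6.28 FPKM.

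Clustered protocadherins, neural adhesion proteins encoded in a row on chromosome 5, were higher in H1299 for 27 of 41 tested members and in A549 for 5, with 9 and 0 far higher (median log2 difference 3.28). PCDHGA3 stood at 11.6, 11.5 and 12.3 FPKM in H1299 and 0, 0.0195 and 0.00990 in A549, and PCDHB5 at 7.48, 7.39 and 7.001 in H1299 against 0.0301, 0.164 and 0.0662 in A549. PCDHB6 and PCDHB11 were expressed in H1299 alone. The gamma genes share their last exons, so reads there cannot be given to a member. Of 27 tested cadherins and protocadherins outside the clusters 11 were higher in A549, near the share of all genes, and 5 in H1299, with 3 and 0 far higher. PCDH9 stood at 9.41, 9.93 and 9.51 FPKM in A549 and 0.189, 0.125 and 0.113 in H1299, and CDH17 at 7.46, 7.72 and 9.99 in A549 against 0.0275, 0.447 and 0.0362 in H1299.

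The cell cycle inhibitors of chromosome 9p21 served as a check of the line labels. CDKN2A (ENSG00000147889, chromosome 9, 21967753 to 21995301, minus strand), known to be deleted in A549, stood at 123, 129 and 127 FPKM in H1299 and 0.1997, 0 and 0 in A549. The single A549 value came from library 1. Its neighbour CDKN2B was at 40.4, 40.3 and 42.4 FPKM in H1299 against 0, 0.0268 and 0 in A549. MTAP, next in the row, was 8.03-fold lower in A549 but present. CCND2, cyclin D2, was expressed in H1299 alone at 2.05, 2.03 and 2.14 FPKM. RB1 differed 1.38-fold, higher in H1299.

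Of the genes named at the start as altered in these lines, NRAS, STK11, SMARCA4 and KEAP1 differed less at the RNA level than the groups above. CDKN2A did not follow them. NRAS was 2.17-fold higher in H1299, STK11 1.32-fold (23.96 ± 1.695 against 16.8 ± 0.456 FPKM, SD, n = 3) and SMARCA4 1.66-fold (5.54 ± 0.211 against 2.93 ± 0.325). CDKN1A, a cell cycle inhibitor, and BAX, a death gene, were 2.79-fold and 3.56-fold higher in A549. EDA2R, a death receptor, and PHLDA3, an AKT inhibitor, were expressed in A549 alone at means of 6.91 and 19.5 FPKM. MDM2, a ubiquitin ligase, stood at 6.898, 7.67 and 6.99 FPKM in A549 and 7.04, 6.56 and 8.21 in H1299. Its 1.11-fold difference (adjusted p = 0.0484) changed sign with scaling to library totals and on the log2(FPKM) scales. Its call was also lost with upper-quartile scaling, with no filter on low counts, with the replicate block and on leaving out any 1 library other than H1299 library 3. SESN2, a stress gene known to answer to ATF4, was 13.3-fold higher in H1299.

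Mesenchymal genes were found on both sides. VIM, vimentin, was abundant in both lines and 5.39-fold higher in H1299, at 3436 ± 84.3 against 556 ± 19.8 FPKM (SD, n = 3). AXL, a receptor kinase of the mesenchymal state, stood at 248, 252 and 249.8 FPKM in H1299 and 31.2, 31.997 and 31.8 in A549 (6.82-fold, adjusted p = 4.47e-13). The repressor ZEB1 was 1.94-fold higher in H1299, ZEB2 and N-cadherin CDH2 1.13-fold and 1.42-fold, while SNAI1, FN1 and S100A4 were far higher in A549. Of 33 tested members 15 were higher in H1299 and 11 in A549.

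Surface proteins of other kinds also separated the lines. MME (CD10), a peptidase, stood at 38.5, 34.5 and 36.5 FPKM in H1299 and 0.0273, 0 and 0 in A549. ITGA4, the alpha 4 integrin, stood at 13.5, 11.99 and 12.5 FPKM in H1299 and 0, 0.0186 and 0 in A549. NT5E (CD73), which makes adenosine, stood at 330.5, 330.1 and 346 FPKM in H1299 against 15.2, 14.8 and 18.5 in A549 (18.1-fold), and PLAUR, the urokinase receptor, at 205, 206 and 215 in H1299 against 14.6, 14.5 and 18.01 in A549 (10.8-fold). MMP14, a membrane collagenase, was 36.4-fold higher in H1299. On the A549 side CD24 stood at 255, 266 and 289.5 FPKM against 0.137, 0.386 and 0.153 in H1299, and NRP1, the semaphorin and VEGF receptor, at 87.8, 82.2 and 86.5 against 0.806, 0.918 and 0.712 (113-fold). Of 23 tested integrin genes 15 were higher in A549 and 4 in H1299. Far higher were 0 in A549 and 1 in H1299 (4.35%, near the 3.95% of all genes). ITGA6 was 4.87-fold higher in H1299 and ITGAV 6.01-fold higher in A549.

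Genes of TGF-beta signalling were more often higher in A549. Of 42 tested genes of the TGF-beta and BMP pathways 26 were higher in A549 and 12 in H1299. Far higher were 7 (16.7%) and 0, against 6.06% and 3.95% of all genes. INHBB, a subunit of activin and inhibin, stood at 64.8, 63.4 and 56.6 FPKM in A549 against 0.0407, 0.1798 and 0 in H1299. FST, which traps activin, stood at 15.1, 15.5 and 19.2 against 0.1599, 0.224 and 0.116 FPKM, and BAMBI, a decoy receptor, at 15.5, 13.4 and 13.7 against 0.0720, 0.266 and 0.189. TGFBI, a matrix protein induced by TGF-beta, was 26.3-fold higher in A549. Of 31 tested genes of the Notch and Hedgehog pathways 20 were higher in A549 and 6 in H1299, and 7 (22.6%) and 0 were far higher. The receptor NOTCH3 and the ligand JAG1 were 17.7-fold and 16.5-fold higher in A549, and GLI2, a transcription factor of the Hedgehog pathway, was expressed in A549 alone at 5.91, 6.33 and 5.39 FPKM.

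Ion channels and pumps were more often on the A549 side, 32 of 63 tested against 20. Far higher were 16 in A549 (25.4%, against 6.06% of all genes) and 3 in H1299 (4.76%, near the 3.95% of all genes). ATP1B1, a subunit of the sodium pump, was 12.4-fold higher in A549 (396 ± 23.1 against 37.4 ± 1.82 FPKM, SD, n = 3), and FXYD2, a regulator of that pump known from kidney, was expressed in A549 alone at 18.8, 16.01 and 12.9 FPKM. CACNA1H, a calcium channel, was likewise expressed in A549 alone at 20.6, 18.8 and 18.01 FPKM, and the water and glycerol channel AQP3 stood at 13.5, 13.3 and 11.7 against 0.111, 0.359 and 0 FPKM. TRPV2, a cation channel, was the highest of the 3 members far higher in H1299, at 28.9, 28.6 and 27.3 FPKM against 0.149, 0.1101 and 0.1096 in A549. Receptors for transmitters and peptides were also more often on the A549 side, 39 of 70 higher in A549 and 23 in H1299. Far higher were 21.4% in A549 and 10.0% in H1299.

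Neural adhesion and guidance genes had 15 of 52 tested members far higher in A549 and 2 in H1299. CNTN1, a contactin, was 11.6-fold higher in A549 (62.4 ± 4.98 against 6.06 ± 0.5196 FPKM), and the netrin NTN4 and the semaphorin SEMA3B were 28.7-fold and 39.8-fold higher. The H1299 members were the latrophilin ADGRL2, at 11.5, 11.4 and 10.7 FPKM against 0.142, 0.127 and 0.105 in A549, and the guidance receptor ROBO2, at 0.925, 1.36 and 1.09 against 0, 0 and 0. Of 51 tested proteases and their inhibitors 28 were higher in A549 and 15 in H1299, with 8 and 8 far higher. MMP7, a protease of epithelium, stood at 28.2, 26.2 and 24.97 FPKM in A549 against 0.154, 0.666 and 0.0320 in H1299, and the coagulation inhibitor TFPI was 38.7-fold higher in A549. ANPEP (CD13), a membrane peptidase, stood the other way, at 8.18, 9.86 and 7.83 FPKM in H1299 against 0.7398, 0.351 and 0.282 in A549.

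Imprinted genes, of which normally 1 parental copy is transcribed, gave single switches. SNRPN, of the Prader-Willi locus, was expressed in A549 alone at 34.7, 38.6 and 32.3 FPKM against 0, 0.0449 and 0.0283 in H1299, and the adaptor GRB10 stood at means of 33.2 FPKM in A549 and 0.0581 in H1299. NAP1L5 and DLX5 were the other way, at means of 9.66 and 1.46 FPKM in H1299 and 0.818 and 0 in A549. Of 20 tested members 10 were higher in H1299 and 6 in A549.

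Amino acid synthesis leaned to H1299 in the serine and asparagine branches. ASNS (ENSG00000070669, chromosome 7, 97852118 to 97872542, minus strand), asparagine synthetase, stood at 648, 702 and 716 FPKM in H1299 and 27.9, 30.5 and 27.9 in A549 (20.1-fold, SE of log2 0.0539, adjusted p = 8.76e-15). The 3 enzymes that make serine from a glycolytic intermediate, PHGDH, PSAT1 and PSPH, were 8.61-fold, 5.39-fold and 1.62-fold higher in H1299, and the one-carbon enzymes SHMT2 and MTHFD2 2.34-fold and 1.93-fold. GLUL, glutamine synthetase, stood at 10.9, 11.7 and 9.26 FPKM in H1299 and 0.245, 0.0645 and 0.0953 in A549. CPS1, the entry enzyme of the urea cycle, stood at 7.98, 8.85 and 10.4 FPKM in A549 and 0.172, 0.138 and 0.241 in H1299, and KYNU, of tryptophan breakdown, at 39.2, 50.6 and 56.7 in A549 against 0.0139, 0.0421 and 0.0108 in H1299. Over the whole list of 58 tested genes 26 were higher in H1299 and 25 in A549.

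In glycolysis single isozymes differed. Hexokinase 2 (HK2) was 33.98-fold higher in H1299 (13.5 ± 1.07 against 0.344 ± 0.0403 FPKM, SD, n = 3), the lactate dehydrogenase gene LDHA 5.02-fold higher in A549, and LDHB 1.33-fold higher in H1299. CA12, a carbonic anhydrase, stood at 234, 238 and 261 FPKM in A549 and 0.0581, 0.498 and 0.0231 in H1299. PPARG, the regulator of fat storage genes, was 27.9-fold higher in A549 and PPARGC1A, a coactivator of mitochondrial genes, was expressed in H1299 alone at 1.301, 1.32 and 1.502 FPKM. Over the whole list of 45 tested genes of glucose handling 31 were higher in A549 and 10 in H1299. In iron handling CP, ceruloplasmin, a copper-bearing oxidase made by liver, stood at 92.4, 91.1 and 122 FPKM in A549 against 0.0816, 0.292 and 0.116 in H1299, and the iron exporter SLC40A1 was 15.5-fold higher in A549. FADS2, a fatty acid desaturase, was 24.6-fold higher in A549 (204 ± 9.34 against 11.4 ± 1.12 FPKM, SD, n = 3). DGAT2, which completes triglyceride synthesis, was 10.6-fold higher in H1299.

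Among neuronal and neuroendocrine genes VGF, the gene of the series' vector, stood at 30.5, 35.3 and 35.3 FPKM in H1299 with empty vector and 0.934, 0.858 and 0.688 in A549 (35.1-fold). CPE, a peptidase of hormone processing, was 26.6-fold higher in H1299. NEFL, a neurofilament, was expressed in A549 alone at 10.2, 11.4 and 11.9 FPKM, and NTM, neurotrimin, in H1299 alone at 13.7, 13.01 and 12.5 FPKM. NRCAM, a neural adhesion molecule, was 219-fold higher in A549 with an SE of 0.0761 on the log2 scale. The neuroendocrine markers CHGA and SYP stayed under 1.7 FPKM in every library, and INSM1 was not tested.

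Genes of general cell function were far higher no more often than all genes tested (3.95% in H1299 and 6.06% in A549). None of 34 cell cycle genes and none of 49 ribosomal protein genes was far higher in either line, although 21 and 35 were higher in H1299 and 8 and 9 in A549. MKI67, the proliferation marker, stood at 34.8, 36.2 and 35.6 FPKM in A549 and 40.5, 39.3 and 36.2 in H1299 (adjusted p = 0.166). Of 63 chromatin regulators 37 were higher in H1299 and 20 in A549, and 2 (3.17%) were far higher in each line. DNMT1, the maintenance methyltransferase, and its partner UHRF1 were 2.08-fold and 1.66-fold higher in H1299, and the Polycomb genes PHC1 and CBX2 differed 5.98-fold toward H1299 and 15.2-fold toward A549. Of 26 antigen presentation genes 1, HLA-DMB, was far higher in A549 (3.85%) and 0 in H1299, which is not above the shares of all genes.

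**Figure D4:**
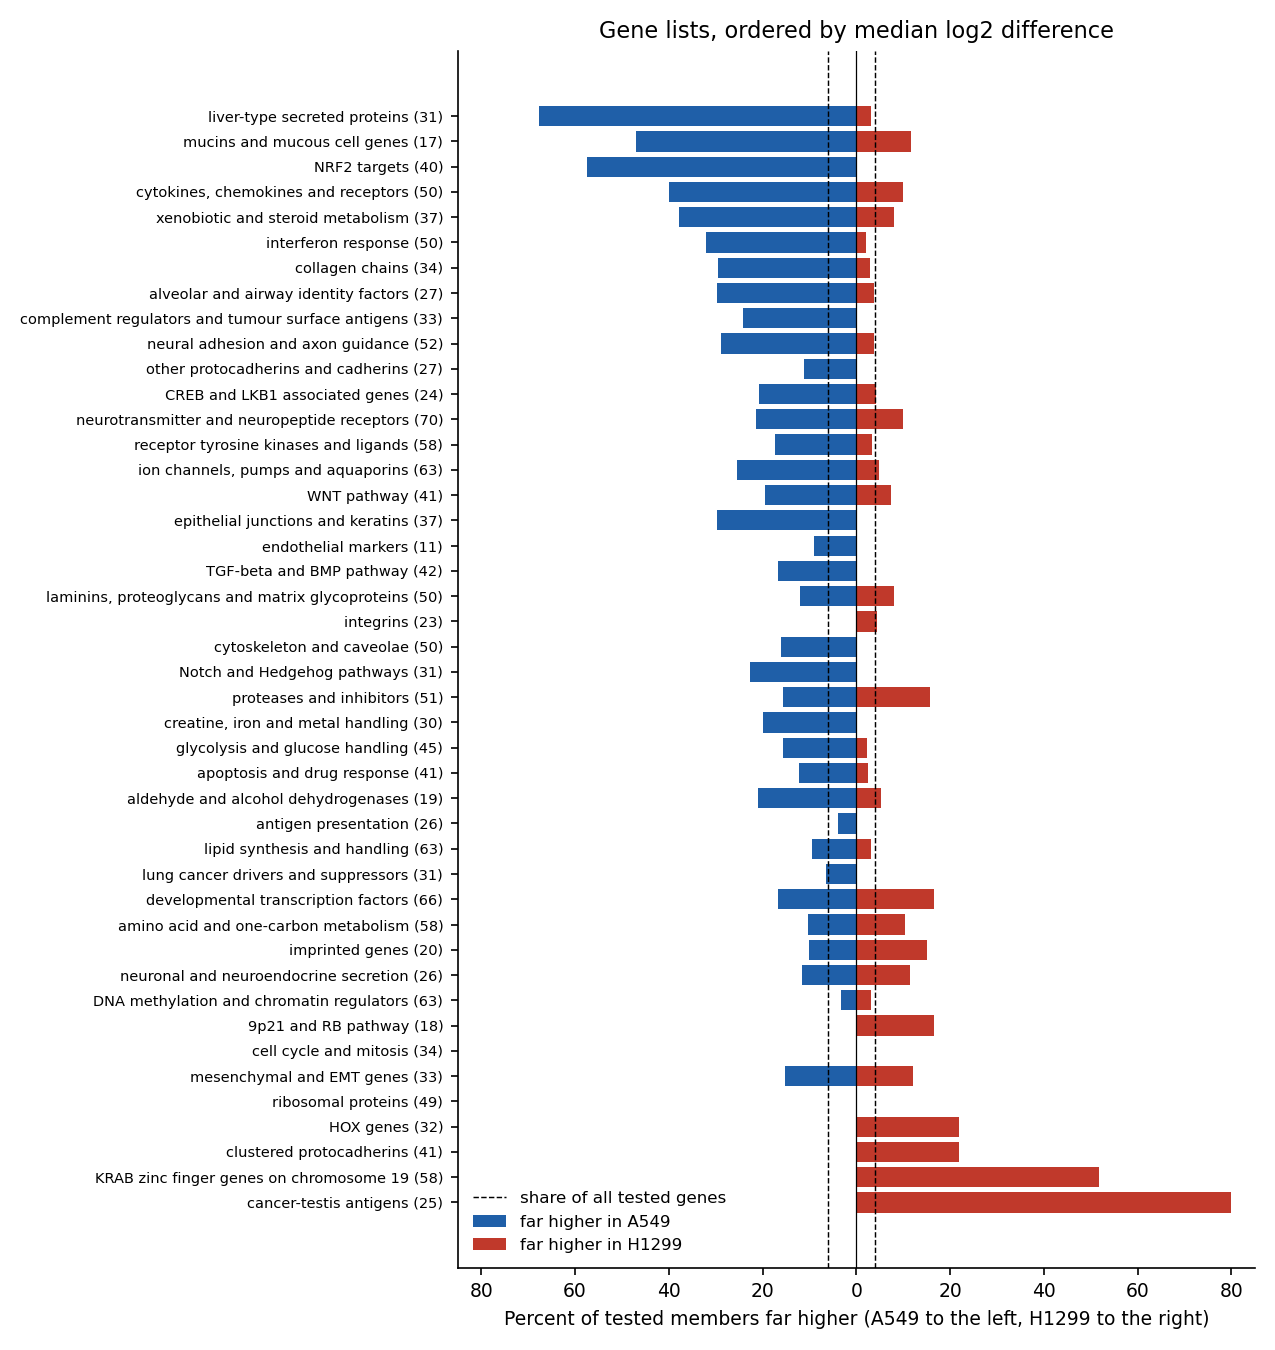
Percent of the tested members of 44 gene lists with at least 10 tested members each (number tested in parentheses) that were far higher in A549 (bars to the left) or H1299 (bars to the right), ordered by the median log2 difference. Dashed lines mark the shares of all tested genes, 6.06% and 3.95%. Liver-type proteins, NRF2 targets and mucins reach farthest to the left, cancer-testis antigens and KRAB zinc finger genes farthest to the right. Members that did not pass the filter on low counts are not in the shares.

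Along the genome the median log2 difference per chromosome ran from -0.66 on chromosome 17 to 0.82 on chromosome 6. Chromosome X had 11.7% of its 531 tested genes far higher in H1299 at a median of -0.01, and chromosome 19 had 9.58% of 1117 at a median of 0.62. Runs of at least 3 neighbouring tested genes all far higher in 1 line numbered 30 in A549, with 103 genes, and 20 in H1299, with 97. In A549 a run of 5 on chromosome 2, 101991844 to 102711318, held the interleukin 1 receptor genes IL1R2, IL1R1, IL1RL1 and IL18R1 and the ion exchanger SLC9A2. In H1299 a run of 8 on chromosome X, 152638183 to 152760222, held GABRQ, 4 MAGEA and 3 CSAG genes. DNA copy number was not measured, so its part in these medians was not tested.

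The libraries with the VGF vector gave a second measurement of the lines that shared no library with the first. Both comparisons came from the same fit of all 12 libraries, with a common filter, scaling and estimate of the spread. Their calls are therefore not fully independent. There 3.69% of the tested genes were far higher in H1299 and 923 genes (6.21%) in A549. Of the 587 genes far higher in H1299 with empty vector, 515 (87.7%) were far higher there again, and 573 were called in the same direction. Of the 901 of A549, 828 (91.9%) were far higher again and all 901 were called in the same direction. The gene called in the other direction was VGF itself, which the vector supplies. Expression in H1299 alone was found again for 225 of 333 genes and in A549 alone for 272 of 326. The VGF classes held 267 (1.8%) and 371 genes (2.5%). A549 VGF library 2 is the one with traces of H1299 transcripts, and without it 362 genes were expressed in H1299 alone and 390 in A549 alone with the VGF vector. The difference between the lines changed with the vector for 28 genes (0.188%).

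**Figure D5:**
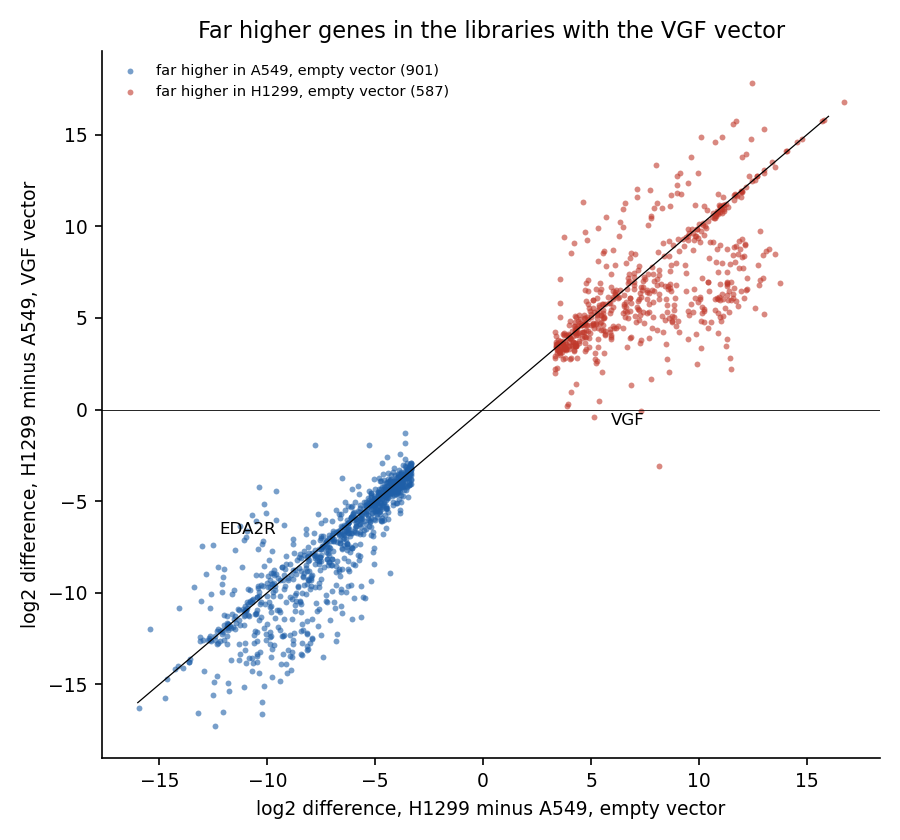
Log2 difference between the lines (H1299 minus A549) in the libraries with empty vector (horizontal) and with the VGF vector (vertical), 3 libraries per group, for the 901 genes far higher in A549 and the 587 far higher in H1299 with empty vector. The diagonal marks equal differences; VGF, which the vector supplies, and EDA2R lie off it.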

How the data were processed

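RNA-seq of 12 libraries was given as 2 tables of the same 26535 features. The deposited counts are whole-number fragments per feature, not normalized, and the deposited FPKM values carry the authors' own name for the unit, fragments scaled to feature length and library depth. The submitters' processing notes name GRCh38 and DESeq2, with no aligner, counter or strand setting (not given in the sources used here), so overlapping, antisense and near-identical genes may share reads. Left out were 18 stray lines and, from the text, 6561 unannotated loci and Y-linked genes. All 19974 Ensembl IDs matched GENCODE 29, whose positions are printed.

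Counts were tested with edgeR 4.0.16 (R 4.3.3): filterByExpr, TMM scaling, 1 mean per group over all 12 libraries, quasi-likelihood F test, Benjamini-Hochberg adjustment over 18228 tested features. The groups of 3 came from the titles, and the design text calls replicates biologically independent. Where all libraries of a line were at 0, a bound uses a floor of 3 counts over the group. Errors given after ± are SD over 3 libraries. An SE is the absolute log2 difference divided by the square root of F from the same test. The fit was also run on simulated data in which few features differed, unlike in these lines, so that run cannot judge the scaling. Genes were named by rule: the 15 highest genes of each line alone, the 10 largest folds among other far higher genes, up to 4 far higher members per list and direction, defining list members, known mutated genes and the 3 longest runs of neighbours per line. Genes and lists were chosen with earlier results of these data known. Lists are described by counts, with no test. DESeq2 1.42.0, limma 3.58.1 (voom, log2 FPKM), other scalings and limits, no filter, a replicate block and leaving out libraries were alternatives. RefSeq promoter windows matched 79.3% of tested genes, 72.8% of those far higher in A549, so a comparison of motif shares is void. Some genes are not reported here.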

Additional observations from a re-analysis of the deposited data

Results flagged for a closer look

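The difference between the lines changed with the VGF vector for 6 of the named genes (edgeR, interaction over all tested features). For VGF itself the difference with the VGF vector minus that with empty vector was -5.52 on the log2 scale (adjusted p = 1.49e-09). VGF stood at 466, 408 and 434 FPKM in A549 with the VGF vector and 352, 371 and 429.96 in H1299. EDA2R, a death receptor, changed by 5.54 (adjusted p = 0.0135): it had no count in H1299 with empty vector and stood at 0.0480, 0.0285 and 0.0385 FPKM in H1299 with the VGF vector, against 6.97, 7.4998 and 6.27 FPKM in A549 with empty vector and 5.98, 6.35 and 6.64 with the VGF vector. Its H1299 values are close to 0, so this change rests on few reads and its size on the prior count of the fit. MAGEA3 changed by -1.14 (adjusted p = 5.34e-04) and MAGEA6 by -0.70 (adjusted p = 0.0125). MAGEA3 stood at 16.99, 14.6 and 14.8 FPKM in A549 with the VGF vector, above the 6.24 to 7.60 FPKM with empty vector, and at 85.1, 87.8 and 82.7 in H1299. MAGEA6 stood at 30.6, 27.7 and 28.1 FPKM in A549 and 84.1, 82.7 and 79.7 in H1299 with the VGF vector. These near copies share reads, so they are not independent. TGFBI changed by -0.73 (adjusted p = 0.0125), at 8.27, 7.23 and 7.45 FPKM in H1299 with the VGF vector against 10.4, 11.04 and 9.88 with empty vector. These H1299 levels account for only part of the change, which also holds that of A549. SAT1, which acetylates polyamines, changed by 0.51 (adjusted p = 0.0174), from 667, 655 and 656 FPKM in A549 and 30.5, 30.5 and 35.7 in H1299 with empty vector to 459, 466 and 467 and 33.6, 32.8 and 31.9 with the VGF vector.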

How the results depend on the processing

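Counts of called genes stayed within 1.5 times under every alternative run. Far higher genes numbered 129 in H1299 and 306 in A549 on the log2(FPKM + 1) scale, which shrinks low levels, 908 and 1416 at 4-fold in place of 10-fold, and 254 and 567 with a mean of at least 5 FPKM. Genes of H1299 and A549 alone numbered 151 and 111 where no count was allowed in the other line, and 107 and 135 with at least 5 FPKM. Leaving out 1 library gave 5643 to 5715 called genes in H1299 and 5794 to 5883 in A549, 584 to 597 and 899 to 913 far higher, and 342 to 357 and 338 to 408 alone, the 408 without H1299 library 2. The 2 libraries left are then assumed to vary like the other groups. MDM2 (log2 -0.15) reversed to 0.061 with library totals, 0.011 on the log2(FPKM + 1) scale and 0.012 on log2(FPKM + 0.1), and MKI67 (log2 -0.08, not called) to 0.13 with library totals. GSTM3, MX1, ZNF552 and ZNF587 lost their call on both FPKM scales, and GAGE12E, GAGE2E and KRT85 with limma voom. GAGE2E also lost its call on log2(FPKM + 1) and without A549 library 1, 2 or 3 or H1299 library 2. Calls higher in H1299 were 49.3% of all calls with TMM scaling, 53.5% with upper-quartile scaling and 57.4% with library totals, which moved the median log2 difference from -0.01 to 0.19.

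Replicate numbers did not pair the empty vector libraries of A549 with those of H1299. Deviations of same-numbered libraries correlated at -0.035, 0.018 and 0.023, and those of differently numbered ones at -0.059 to 0.047. Whether the number pairs empty vector and VGF libraries within a line was not examined. With the number as a block 5780 and 5939 genes were called, and 592 and 906 were far higher, 587 and 899 of them shared with the fit without it. The block ended the calls of MDM2 and ZNF552 and of no other named gene. Levels under 0.1 FPKM rest on a few counts per library and cannot tell no transcription from traces of another library.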
